A study of Mus musculus with 9 samples.

Results

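Expression of 9 genes for CXC chemokines and the CX3C chemokine fractalkine was followed through bulk RNA-seq of a mouse mammary epithelial cell line: Cxcl1, Cxcl2, Cxcl5, Cxcl12, Cxcl14, Cxcl15, Cxcl16, Cxcl17 and Cx3cl1. They were found by joining their symbols to the Ensembl identifiers of the files, and all 9 members were present among 54281 listed genes. The line, Comma-1D, came from the American Type Culture Collection and was cultured with serum, murine EGF and human insulin in every group. Cells were sorted by the surface proteins Sca-1 and EpCAM into 3 populations. The bi population was high for both, the L population was low for Sca-1 and high for EpCAM, and the B population was high for Sca-1 and low for EpCAM. Each population was sampled in a MYC arm and a Her2 arm, transduced with the activated oncogene, and in a control arm, which gave 9 libraries with 1 for each population and arm. The labels do not say whether control cells carried an empty vector, whether arms were separate cultures, or which species the transgenes came from.

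CXC chemokines are small secreted proteins that steer leukocytes through G protein-coupled receptors. Cxcl1, Cxcl2 and Cxcl5 carry the ELR motif and draw neutrophils through Cxcr2, and their genes are classic targets of NF-kB downstream of IL-1 and TNF. Cxcl12 is the homeostatic ligand of Cxcr4 and of the scavenging receptor Ackr3, and in the breast it is best known as a product of stromal fibroblasts. Cxcl16 and Cx3cl1 differ from the rest in being made as membrane-anchored proteins with a mucin-like stalk, from which Adam10 and Adam17 release the soluble chemokine.

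Depth ran from 46.9 to 98.9 M reads per library, so that 3 reads corresponded to between 0.032 and 0.0685 CPM. Levels are given as CPM, read counts relative to library size after scaling by the trimmed mean of M values (TMM). Each difference is a log2 fold change from an additive edgeR model of population and arm, printed with a standard error (SE). The SE was derived as the absolute log2 fold change over the square root of the F statistic of the edgeR test. Each population was thus compared as 3 libraries against 3 with arm as a block, and each oncogene likewise with population as a block. Ly6a, the Sca-1 gene, was lowest in the L library of each arm, at 12.8, 2.37 and 6.52 CPM in L (MYC, Her2 and control), against 139, 15.9 and 18.4 in bi and 112, 19.4 and 57.8 in B. Epcam was at 252 to 336 CPM in bi, at 331 to 609 in L and at 0.183 to 0.763 in B. Erbb2 was at 234, 650 and 189 CPM in the bi, L and B Her2 libraries and at 53.3 to 88.9 CPM in the 6 others, and Myc was highest in the MYC library of each population. The 6 basal epithelial markers summed to between 3350 and 5260 CPM in bi, 1620 and 3640 in L and 1770 and 3770 in B. Of them, 3 (Trp63, Acta2 and Oxtr) were lower in L than in B at an adjusted p (Benjamini-Hochberg) under 0.05. That threshold was passed by 20.8% of all genes there. In MYC against Her2, 1 marker (Oxtr) was higher at that threshold, which 4.57% of all genes passed. Luminal markers were nearly absent from B, where the 6 genes of that list summed to between 2.06 and 5.17 CPM, against 278 to 451 in bi and 524 to 1630 in L. The 7 leukocyte markers summed to between 3.05 and 8.97 CPM, with Cd68 making up most of the sum and Adgre1 at 0.0114 CPM or less. The 5 endothelial markers summed to between 2.47 and 6.38 CPM and the 3 adipocyte markers to between 0.429 and 0.723 CPM.

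Of the 9 genes, 4 lie in a cluster on chromosome 5, spread over 147 kb of the GRCm38 (mm10) genome together with Ppbp, Pf4 and Cxcl3. In order along the plus strand they are Cxcl5 (chr5:90759360-90761624), Cxcl15 (chr5:90794534-90803067), Cxcl1 (chr5:90891241-90893115) and Cxcl2 (chr5:90903871-90905938). Cxcl1 and Cxcl2 are the closest neighbours among them, 10.8 kb apart. The other 5 lie apart: Cxcl12 at chr6:117168535-117181367 on the plus strand, Cxcl17 at chr7:25400053-25412886 on the minus strand, Cx3cl1 at chr8:94772009-94782427 on the plus strand, Cxcl16 at chr11:70453983-70459984 on the minus strand and Cxcl14 at chr13:56288643-56296551 on the minus strand. All 9 are annotated as protein coding.

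Compared per length, the family was dominated by the neutrophil chemokines Cxcl5 and Cxcl1. On the scale of the deposited TPM, which relates reads to transcript length and library size, mean levels over the 9 libraries were 229 for Cxcl5 and 187 for Cxcl1, followed by 32.5 for Cxcl16, 16.9 for Cx3cl1, 16.4 for Cxcl12, 12.6 for Cxcl2 and 1.66 for Cxcl14. Cxcl17 and Cxcl15 averaged 0.172 and 0.118 TPM. The ranges of Cxcl16 (7.91 to 55.9 TPM), Cx3cl1 (8.39 to 39.2 TPM), Cxcl12 (0.243 to 80.9 TPM) and Cxcl2 (2.68 to 53.7 TPM) overlapped, as did those of Cxcl5 and Cxcl1. Cxcl16 also reached the lowest value of Cxcl1 (52.1 TPM), and the ranges of Cxcl17 and Cxcl15 overlapped. Each member overlapped the next in this order, so neighbours were not apart beyond their spread. Ranked by CPM per kilobase of deposited length instead, Cxcl1 stood before Cxcl5 and Cx3cl1 before Cxcl16.

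Shares of the summed level are given next by library. Cxcl1 held 50.1%, 58.1% and 66.7% of the summed TPM in the bi, L and B Her2 libraries, against 26.3%, 29.1% and 29.7% in the matching controls. Cxcl5 held 26.2%, 11.7% and 23.2% of it in the same Her2 libraries, against 56.7%, 55.2% and 60.3% in the controls. The level of Cxcl1 was above that of Cxcl5 in 4 of 9 libraries, the 3 Her2 libraries and L MYC, and the order of the pair was the same by CPM per kilobase in 9 of 9. Cxcl16 held 10.5% to 13.7% of the sum in bi and L libraries but only 0.881% to 2.01% in B. These shares describe single libraries and carry no test.

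**Figure D1:**
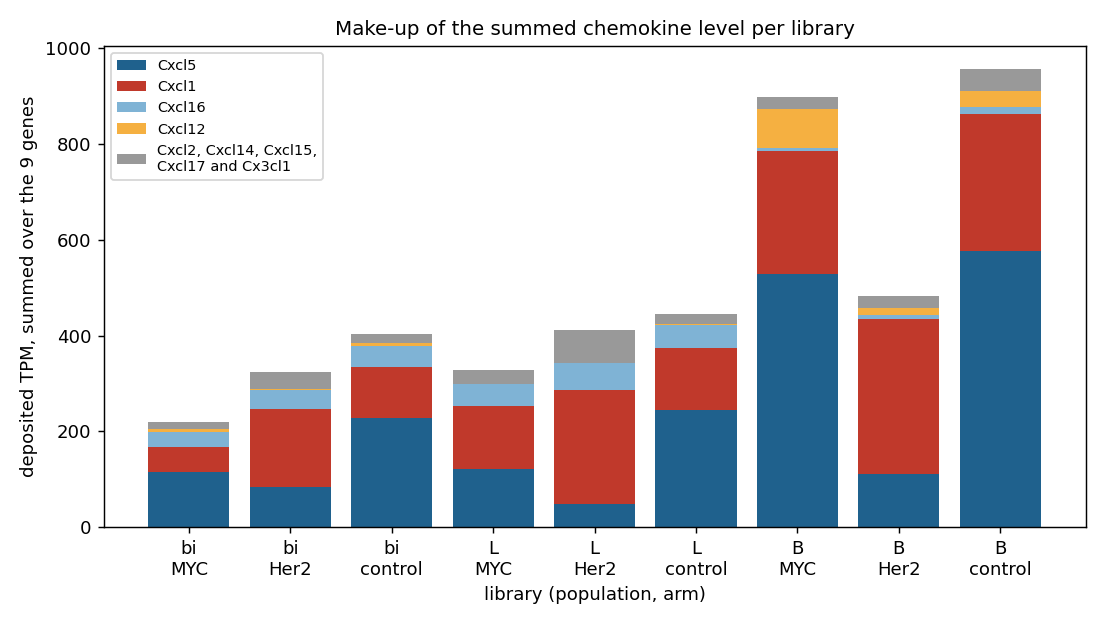
Bars give the deposited TPM of the 9 genes stacked for each library (population above arm), on a linear axis from 0. The sum was 898, 483 and 958 TPM in the B MYC, B Her2 and B control libraries and at most 445 in any bi or L library, and the Cxcl1 segment was the largest in each Her2 library.

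All 9 members passed the filter on low counts in the test across 23834 genes, Cxcl15 and Cxcl17 on 3 to 35 reads per library. Between bi and L, 1 of 9 was called, which here means an adjusted p (Benjamini-Hochberg) under 0.05, against a background of 0.751% of all genes tested. Between bi and B, 5 of 9 were called (2 higher, 3 lower) where 13% of all genes were. Between L and B, 6 of 9 were called (3 higher, 3 lower) where 20.8% of all genes were. The median log2 fold change of the 9 was -0.01, -0.30 and 0.09 in these comparisons, against 0.00, 0.03 and 0.04 over all genes, and calls went in both directions.

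Between arms, MYC against Her2 gave 3 of 9 (2 higher, 1 lower), against a background of 4.57%. MYC against control gave 0 of 9 with edgeR (background 0.365%), and 0 with DESeq2 (background 5.15%) or limma-voom (background 0.864%). Its unadjusted edgeR p was under 0.05 for 1 member, Cxcl12, beside 3317 of 23834 genes. Her2 against control also gave 0 of 9 with edgeR (background 0.021%). Its unadjusted edgeR p was under 0.05 for 4 members (Cxcl1, Cxcl2, Cxcl5 and Cxcl12), beside 2097 of 23834 genes. DESeq2 called 3 members (background 2.42%) and limma-voom 2 (background 0.227%). Both oncogene arms were set against the same 3 control libraries. The edgeR count for Her2 became 1 without the L MYC library (Cxcl5, background 0.254%) and 2 without B MYC (Cxcl5 and Cxcl12, background 0.193%). The median over the 9 members was -0.37 for MYC against Her2, -0.13 for MYC against control and 0.13 for Her2 against control, beside 0.02, 0.03 and -0.01 over all genes.

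**Figure D2:**
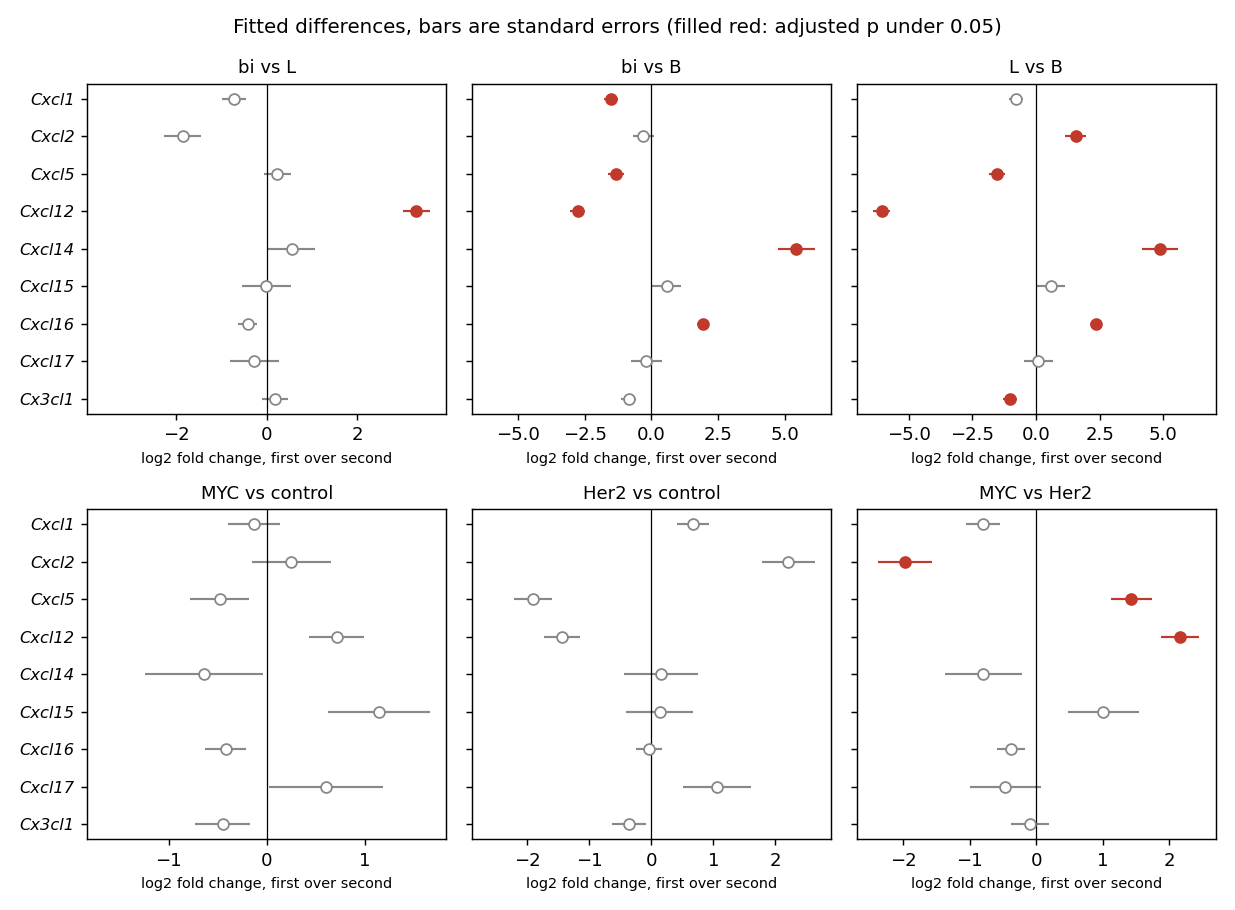
Each panel plots the edgeR log2 fold change (first group over second, horizontal axis, 3 libraries each) of the 9 genes with its SE as a bar, and filled red points mark an adjusted p under 0.05. The population panels hold filled points on both sides of 0, with Cxcl12 at -6.07 and Cxcl14 at 4.87 in L against B, and the axis limits differ between panels.

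Cxcl5, the member of highest mean TPM and a neutrophil attractant made by epithelial cells, was lower in bi and L than in B and higher in the MYC than in the Her2 arm. It stood at 197, 117 and 349 CPM in the bi MYC, Her2 and control libraries, at 172, 84.9 and 351 CPM in those of L, and at 911, 167 and 764 CPM in those of B. The 2 highest values were B MYC and B control, while B Her2 fell inside the bi and L range, so that the groups overlapped. The difference was -1.32 (SE 0.31, adjusted p = 0.021) for bi against B and -1.55 (SE 0.31, adjusted p = 0.0064) for L against B. For MYC against Her2 it was 1.43 (SE 0.31, adjusted p = 0.0342), higher in 3 of 3 populations, by 0.75, 1.02 and 2.45 on the log2 scale in bi, L and B.

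Against control, Cxcl5 gave -1.91 in the Her2 arm (SE 0.31, adjusted p = 0.0667) and lay below the matching control in 3 of 3 populations, with no overlap between the arms. That difference missed the threshold in edgeR and passed it with DESeq2 (adjusted p = 1.57e-06), with no filter (5.4e-05), with library size alone (0.0488), with limma-voom (0.0431), without the L MYC library (0.0433), without the B MYC library (0.0244) and without the bi population (0.0437). The value for MYC against control was -0.48 (SE 0.30, adjusted p = 0.544), and single-library ratios were -0.83 in bi, -1.03 in L and 0.25 in B. The call in bi against B was lost without bi MYC (adjusted p = 0.143), bi control (0.0724) or B MYC (0.0505, log2 fold change -0.83). The call in MYC against Her2 was lost without bi MYC (0.0721), L Her2 (0.156), B Her2 (0.085) or B control (0.061), and without the B population the difference was 0.79 (adjusted p = 0.0501). On log2 TPM the calls in bi against B (0.0533) and in MYC against Her2 (0.0928) were lost. Without the block all 3 calls were, at 0.235 for bi against B, 0.148 for L against B and 0.412 for MYC against Her2.

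Cxcl1, the keratinocyte-derived chemokine and a main Cxcr2 ligand in mouse, was lower in bi than in B. Its levels were 54.4, 132 and 95.2 CPM in the bi MYC, Her2 and control libraries, 117, 248 and 107 CPM in L, and 261, 272 and 220 CPM in B. Every B library lay above every bi library, while L Her2 reached the B range. The difference was -1.51 (SE 0.27, adjusted p = 0.00571) for bi against B, and the call was lost without the arm block (adjusted p = 0.0563). For L against B it was -0.79 (SE 0.26, adjusted p = 0.0601), which missed the threshold, but passed with DESeq2 (0.0288), with library size alone as scaling (0.0454), with no filter (0.0172) and without B Her2 (-1.06, adjusted p = 0.0275) or the whole Her2 arm (-1.10, 0.0299). MYC against Her2 gave -0.80 (SE 0.26, adjusted p = 0.125), which passed with no filter (0.0232) and without the B population (-1.25, 0.0259). Against control the Her2 libraries gave 0.67 (SE 0.26, adjusted p = 0.469), in the same direction in 3 of 3 populations, by 0.47 in bi, 1.21 in L and 0.31 in B. The value for MYC against control was -0.13 (SE 0.26, adjusted p = 0.9), with -0.81 in bi beside 0.13 in L and 0.25 in B.

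Cxcl2, the macrophage inflammatory protein that shares the Cxcr2 receptor, was higher in L than in B and lower in the MYC than in the Her2 arm. It stood at 3.51, 14.3 and 3.16 CPM in the bi MYC, Her2 and control libraries, at 15.8, 66.8 and 5.52 CPM in L, and at 3.68, 12.1 and 5.66 CPM in B. The Her2 library was the highest of each population, and L Her2 was the highest of all 9. The difference was 1.56 (SE 0.41, adjusted p = 0.0243) for L against B, made up of 2.10 in the MYC and 2.46 in the Her2 arm but -0.04 in the control arm. For MYC against Her2 it was -1.97 (SE 0.40, adjusted p = 0.0272), with -2.02 in bi, -2.08 in L and -1.71 in B. MYC against control gave 0.25 (SE 0.40, adjusted p = 0.868).

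For Her2 against control the difference in Cxcl2 was 2.21 (SE 0.42, adjusted p = 0.0924), higher in 3 of 3 populations, by 2.17 in bi, 3.59 in L and 1.09 in B, and the arms did not overlap. That difference passed with DESeq2 (adjusted p = 8.76e-07), with no filter (0.000128) and with limma-voom (0.0448). The value for bi against L, -1.86 (SE 0.40, adjusted p = 0.0911), passed with DESeq2 (6.37e-05), with no filter (0.00068) and without L control (-2.34, 0.0139) or the control arm (-2.20, 0.0122). The call in L against B was lost on log2 TPM (0.0829), without the block (0.169) and without L MYC (0.0983), L Her2 (0.104), B MYC (0.116) or B Her2 (0.114). The call in MYC against Her2 was lost on log2 TPM (0.0845), without the block (0.455) and without bi MYC (0.114), bi Her2 (0.0753), L MYC (0.0604), L Her2 (0.155) or B MYC (0.07). Of the 31-base words in its transcripts, 7.59% were shared with Cxcl3, so estimated counts of the pair could be split between them. Cxcl3 ran at 8.49, 7.38 and 16.5 CPM in the bi MYC, Her2 and control libraries, at 3.4, 7.98 and 7.6 CPM in L and at 38.8, 18.7 and 53.2 CPM in B, with its highest value in B control where that of Cxcl2 was in L Her2.

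The RefSeq table (GRCm38.p6) gave the 250 bases before the RefSeq transcription start for 6 of the 9 genes, Cxcl1, Cxcl2, Cxcl12, Cxcl14, Cxcl15 and Cx3cl1. Cxcl1 and Cxcl2 are shown because they are neighbours whose Her2 library was the highest of the 3 arms in each population, and Cxcl12 because it ran the other way. The windows are chr5:90890995-90891244, chr5:90903649-90903898 and chr6:117168285-117168534, all on the plus strand and written 5′ to 3′. Capitals mark matches to the NF-kB consensus.
Cxcl1: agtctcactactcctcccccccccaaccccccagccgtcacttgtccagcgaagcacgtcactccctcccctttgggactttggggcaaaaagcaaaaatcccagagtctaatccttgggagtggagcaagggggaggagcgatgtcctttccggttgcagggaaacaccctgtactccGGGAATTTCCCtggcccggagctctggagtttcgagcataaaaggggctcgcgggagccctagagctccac
Cxcl2: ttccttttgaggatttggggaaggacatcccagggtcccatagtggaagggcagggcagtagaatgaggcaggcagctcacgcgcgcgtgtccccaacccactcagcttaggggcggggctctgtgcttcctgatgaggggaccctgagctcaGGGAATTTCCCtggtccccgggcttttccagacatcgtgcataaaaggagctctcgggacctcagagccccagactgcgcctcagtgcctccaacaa
Cxcl12: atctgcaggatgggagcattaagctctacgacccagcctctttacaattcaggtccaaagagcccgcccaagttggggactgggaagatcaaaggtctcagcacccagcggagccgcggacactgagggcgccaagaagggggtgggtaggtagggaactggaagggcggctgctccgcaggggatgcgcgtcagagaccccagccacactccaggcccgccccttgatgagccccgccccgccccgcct
Both strands were searched. Cxcl1 and Cxcl2 each held 2 overlapping NF-kB matches, one per strand, between 71 and 61 bases before the start in Cxcl1 and between 97 and 87 bases before it in Cxcl2. The windows of Cxcl12, Cxcl14, Cxcl15 and Cx3cl1 held no match. Of 32851 promoter windows of the same length, 7.25% held at least 1 match. The E-box CACGTG, present in 6.02% of windows, and the AP-1 motif TGANTCA, present in 6.75%, had no match in any of the 6. A match is a run of letters and does not show binding.

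Cxcl12, also called stromal cell-derived factor, ranged 357-fold between its lowest library, at 48 reads, and its highest. It stood at 21.9, 5.88 and 20.4 CPM in the bi MYC, Her2 and control libraries, at 2.26, 0.703 and 1.82 CPM in L, and at 251, 39 and 80.4 CPM in B. The 3 populations did not overlap, with B highest, bi between and L lowest in each arm. The difference was 3.30 (SE 0.30, adjusted p = 0.00813) for bi against L, -2.77 (SE 0.29, adjusted p = 0.000295) for bi against B and -6.07 (SE 0.34, adjusted p = 5.64e-06) for L against B. Here and throughout, fewer cells of a type and less RNA per cell cannot be told apart in bulk libraries.

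Between arms, Cxcl12 was higher in MYC than in Her2 by 2.16 (SE 0.29, adjusted p = 0.00641), with 1.89 in bi, 1.64 in L and 2.69 in B. Her2 against control gave -1.45 (SE 0.29, adjusted p = 0.103), with ratios of -1.79, -1.34 and -1.05 in bi, L and B, lower in 3 of 3 populations. That difference passed with DESeq2 (0.000897), with no filter (0.00158) and without B MYC (0.0499). MYC against control gave 0.71 (SE 0.28, adjusted p = 0.291), with 0.10 in bi, 0.31 in L and 1.64 in B. The calls in bi against L and MYC against Her2 were lost on log2 TPM (0.0852 and 0.0647) and without the block (0.241 and 0.722), and no single library left out ended a Cxcl12 call.

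Fibroblast markers were, by their sum, highest in B, as Cxcl12 was. The 8 genes of that list summed to 22.8 to 38.5 CPM in bi, 18.2 to 19.9 CPM in L and 84.5 to 149 CPM in B. Of its 6 tested genes, 0 were called between bi and L, where Cxcl12 was, 3 were lower in bi than in B, and 5 were lower in L than in B. The median log2 fold change of the 6 was 0.85, -1.35 and -2.40 in that order. The share of all genes called was 0.751%, 13% and 20.8% in these comparisons. Col3a1 was not called in any of these, with 0.17 (SE 0.47, adjusted p = 0.856) in L against B. Between arms, 2 (Pdgfrb and Col3a1) were higher in MYC than in Her2, where 4.57% of all genes were called, and 0 were called against control. Col3a1 averaged only 0.492 CPM in MYC and 0.069 CPM in Her2. Pdgfra, a growth factor receptor of mesenchymal cells, stood at 28.9, 12.8 and 11.8 CPM in bi, 14.4, 13.8 and 14 CPM in L and 102, 52.2 and 58.9 CPM in B (MYC, Her2 and control). It was the largest part of the sum in each B library. Within B, Dcn stood at 25, 25.5 and 1.22 CPM and Col1a1 at 4.73, 2.38 and 36.3 CPM in the same arms. The markers thus did not share an order of arms in B. Lum and Fap stayed at or below 0.241 CPM and Col3a1 at or below 1.23 CPM in every library, and Fap averaged 0.168 CPM in L and 0.0204 CPM in B. The part of these markers in the Cxcl12 result was not tested.

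Cxcl14, an epithelial chemokine whose receptor is not settled, was present in bi and L and close to absent from B. It stood at 4.81, 5.99 and 4.46 CPM in the bi MYC, Her2 and control libraries, at 1.90, 6.40 and 3.04 CPM in L, and at 0.0685, 0.0192 and 0.266 CPM in B, where it had 3, 1 and 15 reads. Every bi and L library lay above every B library. The difference was 5.42 (SE 0.69, adjusted p = 0.000927) for bi against B and 4.87 (SE 0.69, adjusted p = 0.000911) for L against B. With so few reads in B the fitted size was loose: it became 4.66 and 4.04 without B Her2, 7.01 and 6.44 without B control, and 2.55 and 2.08 on log2 TPM, while the call held in each of these. For bi against L the value was 0.55 (SE 0.52, adjusted p = 0.979). No arm comparison was called, with -0.79 (SE 0.58, adjusted p = 0.536) for MYC against Her2, -0.64 (SE 0.60, adjusted p = 0.72) for MYC against control and 0.15 (SE 0.60, adjusted p = 0.998) for Her2 against control.

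Cxcl16, the membrane-anchored ligand of Cxcr6 and a scavenger of oxidised lipoprotein, was higher in bi and in L than in B. It stood at 73.9, 82.2 and 95 CPM in the bi MYC, Her2 and control libraries, at 92.3, 146 and 98.7 CPM in L, and at 17.3, 20.7 and 28.9 CPM in B. The lowest bi library lay well above the highest B library. The difference was 1.93 (SE 0.21, adjusted p = 0.00042) for bi against B and 2.35 (SE 0.22, adjusted p = 7.7e-05) for L against B, and both calls held in all 20 alternative settings. Between bi and L it was -0.42 (SE 0.21, adjusted p = 0.672), with values in the same direction in 3 of 3 arms. Between arms it was -0.42 for MYC against control (adjusted p = 0.42), -0.04 for Her2 against control (adjusted p = 0.998) and -0.37 for MYC against Her2 (adjusted p = 0.385), none of them called. Of its 31-base transcript words, 18.5% were shared with Zmynd15, which overlaps it on the other strand and stood at 1.86 to 5.45 CPM.

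Of the 6 luminal markers, 4 were called higher in bi against B, all 6 in L against B, and 1 was called lower in bi against L, where neither Cxcl14 nor Cxcl16 was called. The share of all genes called was 13%, 20.8% and 0.751% in these comparisons. The part of these markers in the Cxcl14 and Cxcl16 results was not tested.

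Cx3cl1, the membrane-anchored ligand of Cx3cr1, was lower in L than in B. It stood at 28.6, 46.6 and 40.5 CPM in the bi MYC, Her2 and control libraries, at 29.7, 34.6 and 37.8 CPM in L, and at 71.7, 40.5 and 101 CPM in B. B MYC and B control were the 2 highest of the 9, and B Her2 lay among the bi values. The difference was -1.03 (SE 0.28, adjusted p = 0.0284) for L against B and -0.85 (SE 0.28, adjusted p = 0.0845) for bi against B. For bi against B, the MYC and control arms gave -1.33 and -1.31 and the Her2 arm 0.20, and the difference passed with DESeq2 (0.0298), with no filter (0.0345) and without bi Her2 (0.0381) or B Her2 (-1.25, 0.00499) or the whole Her2 arm (-1.32, 0.00393). The call for L against B was lost with the filter of 1 CPM in 3 libraries (0.0519), on log2 TPM (0.232) and without L MYC (0.0887), L Her2 (0.0696), L control (0.114), B MYC (0.139) or B control (0.126). Against control the Her2 arm gave -0.36 (SE 0.28, adjusted p = 0.875), with -1.31 in B beside 0.20 in bi and -0.12 in L, and the MYC arm gave -0.45 (SE 0.28, adjusted p = 0.536). MYC against Her2 gave -0.09 (SE 0.28, adjusted p = 0.927), which averages -0.71 in bi, -0.22 in L and 0.82 in B.

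Cxcl15 and Cxcl17 were close to the limit of detection. Cxcl15, the lung epithelial neutrophil chemokine of mouse, stood at 0.0575 to 0.444 CPM. Its largest fitted difference was 1.14 (SE 0.52, adjusted p = 0.37) for MYC against control, with MYC libraries at 0.315, 0.444 and 0.388 CPM and controls at 0.16, 0.208 and 0.16 CPM in bi, L and B. Cxcl17, a mucosal chemokine, stood at 0.052 to 0.161 CPM on 3 to 12 reads. Neither was called in any comparison. Cxcl17 also overlaps an antisense transcript, 4732471J01Rik, at 1.19 to 2.24 CPM, and the strand setting of the counting is not given in the sources used here.

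**Figure D3:**
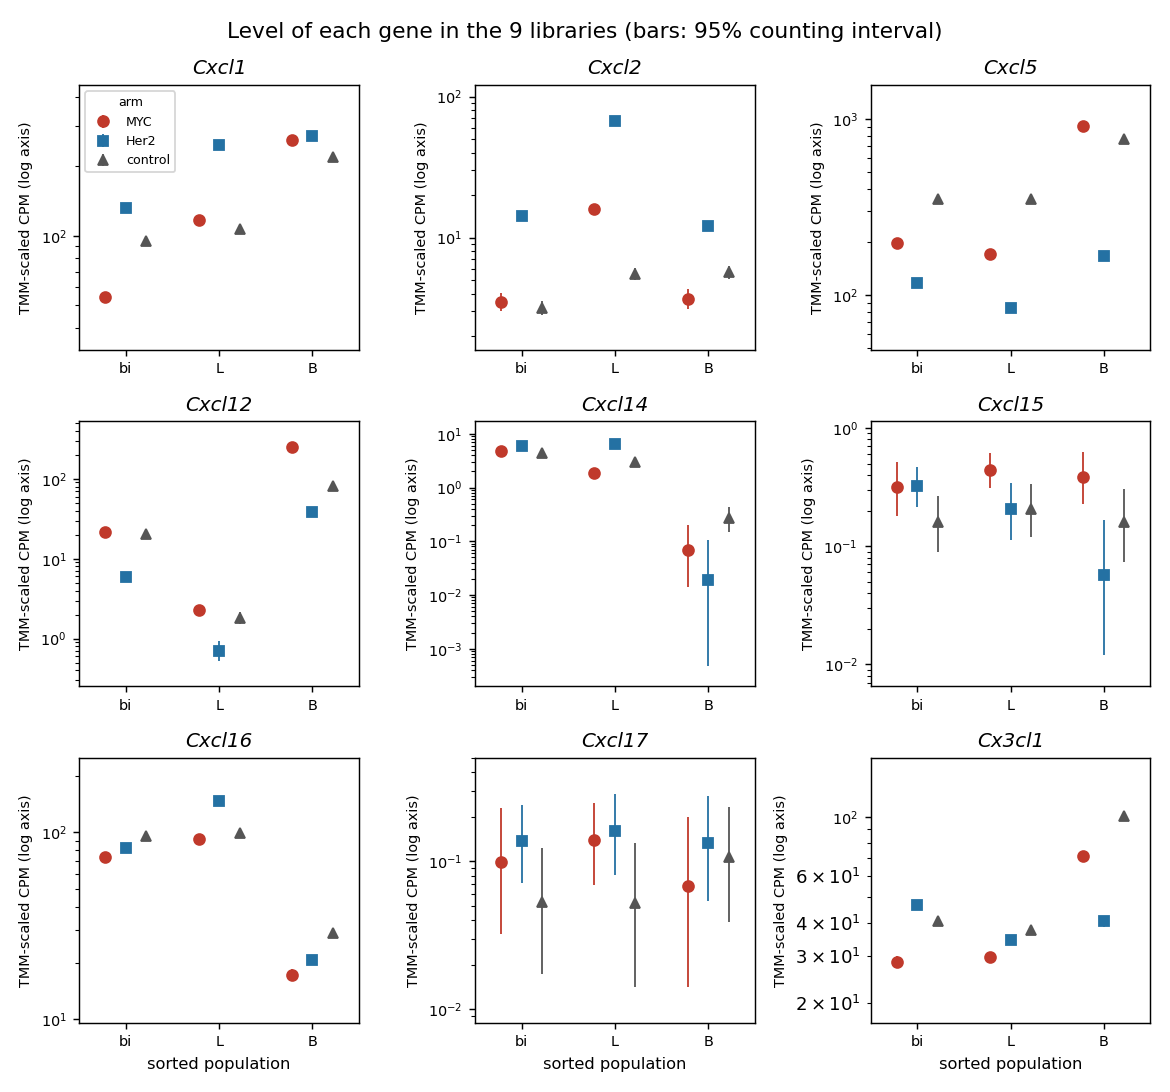
Each panel shows 1 gene, with the TMM-scaled CPM of each library on a log axis, populations along the horizontal axis and arms as colours and shapes. Bars are 95% counting intervals and cover counting error only. Cxcl12 separates all 3 populations, Cxcl14 and Cxcl16 separate B from the other populations, and Cxcl2 has its Her2 point on top in each population.

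Within a population, each oncogene library could be set against its control as 1 library against 1, which allows no test. The fold used was 2. For MYC, 0 of 9 members passed it in bi (background 15.2% of genes tested), 3 in L (11.5%) and 3 in B (16.1%). For Her2, 4 of 9 passed it in bi (13.6%), 6 in L (13.1%) and 6 in B (16.9%). Of these 22 of 54 ratios, those of Cxcl14 in B and of Cxcl15 and Cxcl17 rest on 35 reads or fewer in each library. On log2 TPM with a pseudocount of 0.5, which understates changes of low genes, 12 of 54 passed. The share of all genes past the fold was not computed on that scale, and the shares above do not apply to it. Under Her2 the ratios of Cxcl2, Cxcl5 and Cxcl12, taken from TMM-scaled CPM, passed the fold in all 3 populations. Counting intervals of these 9 ratios left out 0, the widest being -1.88 to -0.89 for Cxcl12 in L, where the Her2 library had 0.703 CPM. That interval reached below the fold, as did those of Cxcl12 in B (-1.12 to -0.97) and Cxcl2 in B (0.90 to 1.30). With library size alone as scaling, 21 of 54 ratios left their counting interval and 33 stayed inside it. On log2 TPM, which also differs in its use of transcript length and in its pseudocount, 30 of 54 left it.

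**Figure D4:**
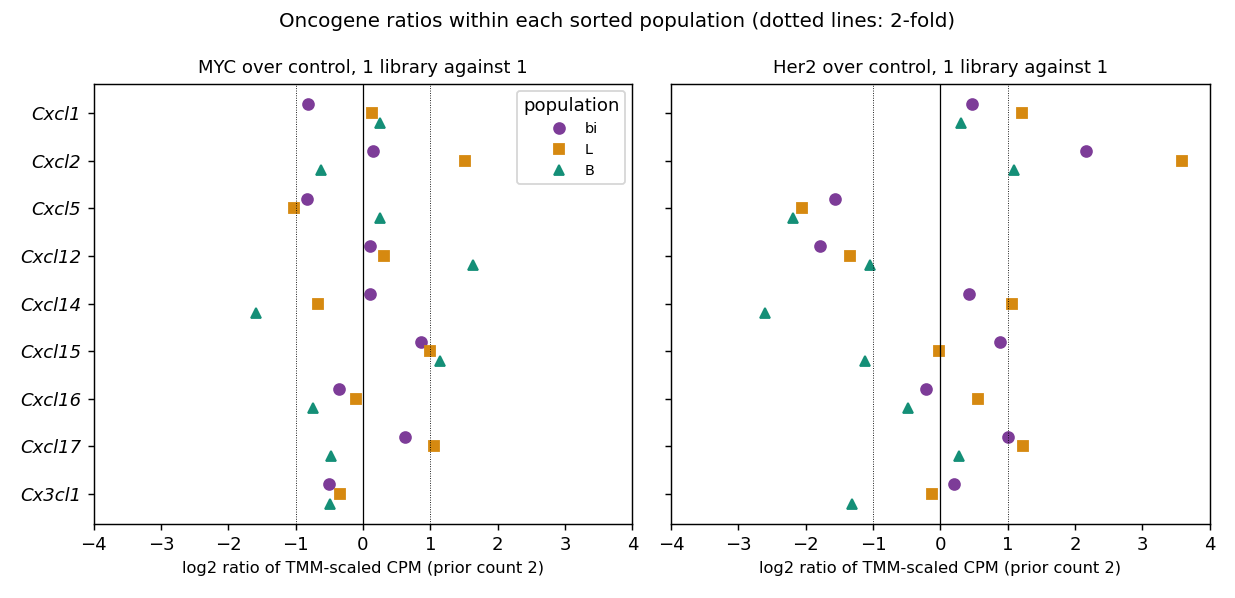
Points give log2 ratios of TMM-scaled CPM (prior count 2), oncogene over control, for the 9 genes in each population, MYC at left and Her2 at right, with dotted lines at 2-fold. For Her2, the 3 points of Cxcl2 lie to the right of 0 at 1.09 to 3.59, and those of Cxcl5 (-2.19 to -1.57) and Cxcl12 (-1.79 to -1.05) to the left.

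The counts of the pathway lists that follow are to be read against the share of all genes called, which was 0.751% in bi against L, 13% in bi against B, 20.8% in L against B and 4.57% in MYC against Her2. Other CXC ligands were mostly low. Of 7 listed, 5 passed the filter, of which 1 was called in bi against B and 2 in L against B, and Pf4 and Cxcl13 were at or near 0. Cxcl3, an ELR ligand of the same gene cluster, was lower in bi than in B (-1.79, SE 0.36, adjusted p = 0.0108) and lower in L than in B (-2.49, SE 0.38, adjusted p = 0.0015). Cxcl10, an interferon-induced Cxcr3 ligand, was higher in L than in B by 2.49 (SE 0.66, adjusted p = 0.0246), on levels of 4.84, 0.864 and 0.533 CPM in the L MYC, Her2 and control libraries and 0.183, 0.268 and 0.284 CPM in B. No ligand of this list was called between arms, where Cxcl10 had the smallest p for MYC against control (1.51, SE 0.64, adjusted p = 0.33) and Cxcl3 for Her2 against control (-0.79, SE 0.36, adjusted p = 0.584).

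Receptors were scarce apart from Ackr3. Of 9 listed, 5 passed the filter and 1 of these was called once, in L against B, where 20.8% of all genes were. Ackr3, the scavenging receptor of Cxcl12, was lower in L than in B (-3.16, SE 0.78, adjusted p = 0.018), with 1.26, 15.4 and 2.03 CPM in the L MYC, Her2 and control libraries and 60.9, 29.1 and 28.6 CPM in B. In bi it stood at 16.3, 13.5 and 10.4 CPM (bi against B -1.60, SE 0.67, adjusted p = 0.165). Cxcr4, the signalling receptor of Cxcl12, was at 0.296 CPM or less and at 0 reads in B MYC and B Her2. Cxcr2, the receptor of the ELR ligands, ran at 0.708 to 1.8 CPM, and Cx3cr1 at 0.731 to 2.8 CPM.

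Among 6 proteases that process chemokines, Mmp2, Mmp9 and Mmp14, 3 of the 5 tested, were lower in L than in B, with log2 fold changes of -1.87 (SE 0.37, adjusted p = 0.00601), -4.75 (SE 0.58, adjusted p = 0.000397) and -0.68 (SE 0.19, adjusted p = 0.0305). Mmp9 followed the order of Cxcl12 and was higher in bi than in L by 3.01 (SE 0.54, adjusted p = 0.0427) and lower in bi than in B (-1.74, SE 0.50, adjusted p = 0.0493). Unlike Cxcl12, its bi and B libraries overlapped (5.64 CPM in bi Her2, 5.07 CPM in B MYC), with -0.05 for bi against B in the Her2 arm. Adam10 and Adam17, the sheddases of Cxcl16 and Cx3cl1, ran at 165 to 292 CPM and 61.2 to 121 CPM and were not called. No protease was called between arms, where Mmp9 had the smallest p for MYC against Her2 (-1.92, SE 0.53, adjusted p = 0.0752).

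Of 14 NF-kB pathway genes, 3 were lower in bi than in B, 2 were lower and 1 higher in L than in B, and 0 were called between bi and L or between arms. The 3 of 14 in L against B are near the 20.8% of all genes called there, and the 3 of 14 in bi against B stand beside 13%. Relb, a subunit of the non-canonical pathway, was lower in bi than in B (-0.74, SE 0.19, adjusted p = 0.0297) and in L than in B (-0.88, SE 0.19, adjusted p = 0.00913). Ikbkg, the scaffold of the IKK complex, was lower (-0.70, SE 0.18, adjusted p = 0.0298) and (-0.89, SE 0.18, adjusted p = 0.00634). Nfkbie, which encodes an inhibitor, was lower in bi than in B (-1.11, SE 0.25, adjusted p = 0.0183). Tnfaip3, the feedback inhibitor A20, was higher in L than in B by 1.39 (SE 0.42, adjusted p = 0.0421). That value was made up of 1.80 in the MYC and 2.55 in the Her2 arm but -0.17 in the control arm, and the groups overlapped.

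Cytokines that induce CXC ligands and their receptors were called in each population comparison and between the oncogenes. Of 9 genes, 1 was lower in bi than in L, 3 were higher and 1 lower in bi than in B, 4 were higher and 1 lower in L than in B, and 1 was higher and 1 lower in MYC than in Her2, beside 0.751%, 13%, 20.8% and 4.57% of all genes in these comparisons. Il1a, which encodes interleukin 1 alpha, stood at 62.4, 374 and 153 CPM in the bi MYC, Her2 and control libraries, at 203, 1040 and 271 CPM in L and at 28, 145 and 63.1 CPM in B. The Her2 library was the highest and the MYC library the lowest of each population, and the difference for MYC against Her2 was -2.43 (SE 0.21, adjusted p = 0.00161). Her2 against control gave 1.46 (SE 0.21, adjusted p = 0.0573) and MYC against control -0.97 (SE 0.21, adjusted p = 0.0751).

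Il1a was also lower in bi than in L (-1.34, SE 0.21, adjusted p = 0.026) and higher than in B in both bi (1.27, SE 0.21, adjusted p = 0.00362) and L (2.61, SE 0.22, adjusted p = 3.76e-05). Its receptor gene Il1r1 was higher in MYC than in Her2 by 1.60 (SE 0.31, adjusted p = 0.023). Tnf stood at 5.93, 2.08 and 2.06 CPM in bi, at 11, 4.07 and 3.59 CPM in L and at 0, 0.0192 and 0.0887 CPM in B, and was called in bi against B (adjusted p = 0.000409) and L against B (adjusted p = 0.000102), with a fitted size that depends on how the few B reads are treated. Its receptor Tnfrsf1a was lower than in B in bi (-1.18, SE 0.24, adjusted p = 0.012) and L (-1.34, SE 0.25, adjusted p = 0.0041). Il1b was called higher than in B in bi (adjusted p = 0.0468) and L (adjusted p = 0.00213) at 2.08 CPM or less, and Tlr4 was higher in L than in B by 0.97 (SE 0.26, adjusted p = 0.0263).

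The 6 factors that control the decay of AU-rich chemokine transcripts gave 1 call in bi against B, 2 in L against B and 2 in MYC against Her2, all of them higher, beside 13%, 20.8% and 4.57% of all genes called there. The count in bi against B is near that share. Zc3h12a, the RNase Regnase-1, was higher in bi than in B by 0.71 (SE 0.18, adjusted p = 0.0268), in L than in B by 1.13 (SE 0.18, adjusted p = 0.00171) and in MYC than in Her2 by 0.74 (SE 0.18, adjusted p = 0.047). Zfp36l1, a decay-promoting zinc-finger protein, was higher in MYC than in Her2 by 1.48 (SE 0.17, adjusted p = 0.00486). Zfp36, which encodes tristetraprolin, was higher in L than in B by 1.38 (SE 0.36, adjusted p = 0.0238).

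The genes most like each member were ranked by Pearson r of log2 CPM over the 9 libraries among 10170 tested genes of at least 5 CPM on average (10171 for members below that level). For Cxcl12 they were Hoxb3 (r = 0.987), S1pr3 (0.981) and C1qtnf6 (0.980). For Cxcl16 they were Atp9a (0.994), Cep70 (0.990) and Myo1d (0.990), and for Cxcl14 Pcyt2 (0.990), Fasn (0.986) and Serpinb5 (0.984). The r values were lower for Cxcl5 (Pcyox1l 0.940, Rab32 0.935, Bmt2 0.928), Cxcl1 (Srgap3 0.942, Ero1lb 0.913, Zfpm2 0.912), Cxcl2 (F2r 0.935, Ralgapa2 0.928, Thsd4 0.916) and Cx3cl1 (Mmp14 0.933, Jag1 0.931, Tcp11l1 0.930). For the low genes, the leaders were Phykpl (0.930), Plppr3 (0.908) and Ephb3 (0.880) for Cxcl15, and Bcl2l11 (0.805), Cxcl2 (0.799) and Atat1 (0.796) for Cxcl17.

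Among members, Cxcl14 and Cxcl16 had r = 0.95, Cxcl12 and Cxcl16 r = -0.88, and Cxcl2 and Cxcl5 r = -0.75. Cxcl1 and Cxcl2, although neighbours with the same motif, had r = 0.43, and Cxcl1 and Cxcl5 had r = 0.15. By rank (Spearman) these pairs had 0.72, -0.93, -0.68, 0.48 and -0.12 in the same order. All of these correlations run over the same 9 libraries, which share populations, arms and depth, and are given as a description without a test.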

How the data were processed

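Per gene, the deposited tables give an estimated count of reads (an expected count, which need not be whole) and a TPM value, as named in the file headers. The authors made the estimated counts and TPM with Salmon 0.9.1, with mm10 as the genome build, per the submitters' processing notes. Which transcript annotation they used is not given in the sources used here. Libraries were stranded and ribosomal RNA was depleted, per the labels' protocols, while the molecule label reads polyA RNA. RNA came from 1 of 2 kits, which the labels do not assign to libraries.

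Symbols were joined by Ensembl identifier (53544 with version, 563 without, 174 unmatched). Estimated counts were rounded, passed through filterByExpr with arm as the grouping (at least 10 reads, 15 in total, which kept 23834 genes), scaled with TMM (factors 0.903 to 1.14) and fitted with edgeR 4.0.16 in R 4.3.3 (quasi-likelihood, 4 residual degrees of freedom). With no replicate of any population and arm, library noise and interaction share the residual, and p-values measure only the spread between these 9 libraries. Adjusted p-values are Benjamini-Hochberg over all genes tested. CPM are TMM-scaled over library totals, and single-library ratios use a prior count of 2. The members, gene lists and tests were chosen with earlier results of these data known. Named genes were the 9 members, every called gene of each pathway list or else that of smallest p, and for each member the 3 most like genes. DESeq2 1.42.0, limma 3.58.1 (voom, and log2 of the deposited TPM with a pseudocount of 0.5), other scalings and filters, a model without block, and left-out libraries, arms and populations were tried. The script was tested on simulated data. Gene models came from GENCODE for GRCm38 and promoters from RefSeq for GRCm38.p6. Figures used matplotlib 3.10.9.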

Additional observations from a re-analysis of the deposited data

Results flagged for a closer look

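Cxcl2 and Cxcl14 had single-library ratios of oncogene over control of opposite sign in L and B. Each was at least 0.5 on the log2 scale with a counting interval without 0. Ratios of MYC over Her2 were not part of that flag. Among those, Cx3cl1 was at -0.71 in bi (interval -0.79 to -0.62) and at 0.82 in B (0.74 to 0.90). Each ratio sets 1 library against 1, and the difference between populations was not tested. For MYC against control, Cxcl2 was at 1.51 in L (15.8 CPM in L MYC, 5.52 CPM in L control) and at -0.62 in B (3.68 CPM in B MYC, 5.66 CPM in B control). For Her2 against control, Cxcl14 was at 1.07 in L (6.40 CPM in L Her2, 3.04 CPM in L control) and at -2.60 in B, where the Her2 library had 1 read and the control 15, with a counting interval of -9.19 to -1.10.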

How the results depend on the processing

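Of 15 called member results, 6 kept their direction and call in all 20 alternative settings, namely Cxcl12, Cxcl14 and Cxcl16 in bi against B and in L against B. The other 9 lost the call at least once, and 8 uncalled results passed in at least 1 setting. No called result changed sign. Leaving out the MYC arm ended the calls of Cxcl5 in bi against B and of Cxcl2 and Cx3cl1 in L against B, the Her2 arm that of Cxcl2 in L against B, and the control arm those of Cxcl5 in bi against B and Cx3cl1 in L against B. In MYC against Her2, Cxcl2 was lost without the bi population and Cxcl5 without L or B. Percentages that follow are the share of all genes called in the same setting. The number of members called between bi and L was 2 with no filter (1.76%), with DESeq2 (3.08%) and without the control arm (0.522%). It was 0 on log2 TPM (0.0252%) and with no block (0.0839%), and 1 to 2 with each library left out (0.139% to 0.969%). Between bi and B it was 3 with no block (6%) and 4 to 6 with a library left out (7.6% to 13.7%). Between L and B it was 4 to 7, with 7 with library size alone (21.3%), with no filter (14%) and with DESeq2 (21.7%). With a library left out it was 4 to 6 there (13.4% to 22.3%). For MYC against control it was 1 without the B population (Cxcl5, 3.45%) and 0 with each library left out (0.0249% to 1.98%). For Her2 against control it was 1 with library size alone (0.134%), 3 with no filter (1.56%), 3 with DESeq2 (2.42%) and 2 with limma-voom (0.227%). It was 1 without the bi population (0.533%) and 0 to 2 with a library left out (0% to 0.374%). For MYC against Her2 it was 0 on log2 TPM (1.37%) and with no block (0.0252%), and 1 to 3 with a library left out (0.875% to 6.07%). On log2 TPM, 12 of the 54 single-library ratios passed the fold, with no share over all genes computed on that scale. The cause of these changes was not tested.

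Signs turned only for uncalled results, the largest of them Cxcl15 in bi against B at 0.57. With libraries left out, those that turned ran from -0.06 to 0.48 (Cxcl5), -0.60 to 0.36 (Cxcl15) and -0.17 to 0.39 (Cx3cl1) in bi against L, from -0.63 to 0.35 (Cxcl2) and -0.50 to 0.30 (Cxcl17) in bi against B, and from -0.25 to 0.54 (Cxcl17) in L against B. For MYC against control they ran from -0.44 to 0.16 (Cxcl1) and -0.30 to 0.84 (Cxcl2). For Her2 against control they ran from -0.50 to 0.74 (Cxcl14), -0.54 to 0.57 (Cxcl15), -0.27 to 0.19 (Cxcl16) and -0.70 to 0.03 (Cx3cl1). For MYC against Her2 they ran from -0.48 to 0.25 (Cx3cl1). Cxcl15 in bi against L was 0.02 with no filter, 0.21 without the MYC arm and 0.16 without the control arm. In bi against B, Cxcl2 was 0.09 without the control arm and Cxcl15 -0.16 without the Her2 arm. Cxcl17 in L against B was -0.30 without the MYC arm. Cxcl1 in MYC against control was 0.04 with no block and 0.20 without the bi population, and Cxcl2 was -0.26 without the L population. In Her2 against control, Cxcl14 was -0.21 with DESeq2, -0.10 without the bi and -0.65 without the L population. There, Cxcl15 was -0.00 on log2 TPM and -0.52 without the bi population. There, Cxcl16 was 0.16 with no block, 0.04 without the bi and 0.23 without the B population, and Cx3cl1 was 0.10 without the B population. Cx3cl1 in MYC against Her2 was 0.09 with no block and 0.26 without the bi population.

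Calls over all genes varied as well. The count, 179 in bi against L, ran from 6 to 698 across tools, scalings, filters and block. It ran from 1430 to 3796 (3094) in bi against B, 3369 to 5574 (4953) in L against B, 3 to 966 (87) in MYC against control, 0 to 619 (5) in Her2 against control and 6 to 2089 (1089) in MYC against Her2. The median of all genes shifted to 0.112 and 0.133 for bi and L against B with no filter, and to 0.118 and 0.117 without B control. Genes of the pathway lists were tested in the additive edgeR model alone. Libraries were matched by arm or by population through the block of the model, and not by replicate number, since each population and arm has 1 library. Depth limits Cxcl15, Cxcl17 and, in B, Cxcl14.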
